A study of Mus musculus with 24 samples.

Results

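The replication-dependent histone cluster genes were examined in dermal papilla cells with and without Hdac1 and Hdac2. Members were every gene whose deposited symbol starts with Hist1h, Hist2h, Hist3h or Hist4h, which gave 69 of the 25755 genes listed. The 69 identifiers carry 68 symbols, because Hist2h2bb stands on ENSMUSG00000105827 and on ENSMUSG00000050936. By the class in their symbols, 6 members fall under linker histone H1, 19 under H2A, 19 under H2B, 12 under H3 and 13 under H4. Not all of them encode a histone. GENCODE M21 lists Hist1h2al (H2A) as a processed pseudogene and ENSMUSG00000050936 (H2B) as a lincRNA. By cluster, 55 belong to Hist1, 11 to Hist2, 2 to Hist3 and 1 to Hist4. Every member had at least 1 read in the 24 libraries.

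The study asked whether the histone deacetylases Hdac1 and Hdac2 act within the dermal papilla, the mesenchymal signalling centre at the base of the hair follicle, during the hair cycle. RNA was sequenced from mouse dermal papilla cells sorted by flow cytometry for a YFP reporter at postnatal days 20 (telogen), 24 (early anagen), 28 (mid anagen) and 60 (the second telogen). Each age had 3 control and 3 double mutant (dM1/2) libraries, each from cells of individual mice, so 24 libraries in all. All groups carried Cor-cre, in which the Corin gene drives Cre in dermal papilla cells, together with the Cre-dependent EYFP reporter at ROSA26. The dM1/2 mice were Cor-cre/+ with Hdac1 Flox/Flox and Hdac2 Flox/Flox. Controls were Cor-cre/+ mice that kept an unfloxed copy of Hdac1 or of Hdac2: Hdac1 Flox/+ plus Hdac2 Flox/+, Hdac1 Flox/+ alone, Hdac2 Flox/+ alone, Hdac1 Flox/+ plus Hdac2 Flox/Flox, or Hdac1 Flox/Flox plus Hdac2 Flox/+. The labels do not say which control library had which of these alleles, so some controls could lack Hdac1 alone or Hdac2 alone in the papilla.

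Replication-dependent histone genes supply the bulk of histone protein while DNA is copied, and their transcripts accumulate in S phase and are degraded when it ends. Most of these transcripts have no poly(A) tail and end just after a conserved stem-loop that is bound by the stem-loop binding protein, although some members also give polyadenylated transcripts in cells that do not divide. The dermal papilla is a largely quiescent tissue that signals to dividing epithelial cells through the hair cycle. The libraries were made from total RNA after removal of ribosomal RNA, without poly(A) selection, so transcripts without a tail could be counted.

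Values are reads on a gene divided by the library's size factor, called normalized reads below, and are listed for libraries 1, 2 and 3 of a group in that order. Recovered read totals on genes ran from 11635062 to 13369732 per library at P20, from 35469841 to 49331751 at P24, from 37171260 to 48331795 at P28 and from 8171944 to 9724000 at P60. The deeper anagen libraries resolve members that stand at a few reads in the telogen ones. Xist, which is transcribed in female cells, had 8113.4 to 15874.7 normalized reads at P20 and 12306.0 to 26332.8 at P60, but at most 2.29 at P24 and 3.91 at P28. Sex and depth therefore differed together with hair cycle stage, and stage, sex and depth cannot be told apart where anagen is compared with telogen. P24 and P28 libraries had the same Xist state and a similar depth. Within an age, control and dM1/2 libraries had similar depth and the same Xist state.

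The targeted genes were read first, as a check of the labels. At P24 Hdac1 had 674.7, 668.2 and 668.5 normalized reads in controls and 209.0, 187.8 and 116.0 in dM1/2, and every mutant library lay below every control. At P20 the controls had 375.0, 511.3 and 504.8 and the mutants 216.0, 369.6 and 270.0, again without overlap but with closer values. At P28 the controls had 213.6, 529.0 and 104.7 and the mutants 190.2, 148.7 and 125.7. The library labelled control 3 of P28 thus had less Hdac1 than any mutant library of that age, and its level goes against a control with both Hdac1 copies active. At P60 the controls had 505.9, 359.9 and 375.8 and the mutants 371.1, 347.0 and 317.7, so the groups overlapped. The log2 difference of Hdac1, dM1/2 minus control, was -2.01 ± 0.22 (SE) at P24, where it passed limma's test at an adjusted p of 0.00167. It was -0.72 ± 0.22 at P20 (adjusted p 0.122), -0.58 ± 0.55 at P28 (adjusted p 0.454) and -0.25 ± 0.19 at P60 (adjusted p 0.986). The P28 value rests on single controls: it was -1.13 without the library labelled control 3 (adjusted p 0.0426) and 0.03 without control 2 (adjusted p 0.958). For Hdac2 the difference was -0.01 in P20, 0.27 in P24, 0.16 in P28 and 0.08 in P60 libraries (adjusted p from 0.117 to 0.991). Reads summed over a whole gene do not separate deleted from remaining exons, so they check the deletion only in part.

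The labelled cell type was checked with 20 dermal papilla markers, all of which had reads in all 24 libraries. Corin, which marks papilla cells, had 41112.4, 30326.2 and 75255.4 normalized reads in P28 controls and 4580.7, 4008.8 and 5005.4 in dM1/2. The marker was present in every library, and far lower in all mutants of that age. Of the 20 markers, 10 were lower and 2 higher in dM1/2 at P24, with a median log2 difference of -0.53, and 7 were lower and 4 higher at P28, with a median of -0.89. The shares that passed were 60.0% and 55.0%, against 26.6% and 35.5% of all tested genes. Of 14028 genes at P24, 1662 were lower and 2073 higher, and at P28 15.6% of all genes were lower and 20.0% higher. Corin fell by 3.33 at P28, Fgf7 by 2.18 and Lepr by 1.86, while Sox18 rose by 1.97, Prdm1 by 1.92 and Sox2 by 1.47. The Sox18 call was lost without control 1 (2.22), dM1/2 1 (1.94), dM1/2 2 (2.10) or dM1/2 3 (1.87) of P28. The summed level of the list was 371872, 220568 and 584061 in P28 controls (mean 392167) and 198050, 180196 and 194229 in P28 dM1/2 (mean 190825). The library labelled control 3 was the highest, and control 2 lay close to the mutants. Vcan was the most abundant gene in all of these libraries but 1. At P20 the summed list ran from 66820 to 89178 in controls and from 91249 to 127835 in dM1/2, higher in all mutants, with a median difference of 0.53, and Sox18 (1.74) was the only marker that passed. At P60 the median was -0.78 and 0 markers passed in limma. The marker sum thus also separated the genotypes at P20, where the histone sum did not, and its part in the histone result was not tested.

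The feature that sets most of these transcripts apart is the stem-loop near the 3′ end, and it is shown here for 6 members because the gene models that include it are compared further on. A stem-loop of 16 bases was found in the GENCODE M21 transcript models of 44 members. The sequence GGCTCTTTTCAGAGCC occurred in 24 members of the H1, H2A, H2B and H3 classes, and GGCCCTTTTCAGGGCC in 7 members of the H4 class. Capitals mark the stem-loop in the transcripts of Hist1h1t (chr13:23695814-23696725, + strand), Hist1h2ae (chr13:23570517-23571220, - strand), Hist1h2bp (chr13:21787461-21789213, + strand), Hist1h3g (chr13:23535422-23535951, + strand), Hist1h4j (chr13:21735064-21735837, + strand) and Hist4h4 (chr6:136801553-136804415, - strand), all GRCm38 and in the 3′ untranslated region.
Hist1h1t: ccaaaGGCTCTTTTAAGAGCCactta
Hist1h2ae: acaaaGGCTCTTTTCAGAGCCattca
Hist1h2bp: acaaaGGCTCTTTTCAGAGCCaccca
Hist1h3g: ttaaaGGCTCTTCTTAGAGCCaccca
Hist1h4j: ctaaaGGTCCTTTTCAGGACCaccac
Hist4h4: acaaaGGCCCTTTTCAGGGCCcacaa

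Because members moved together at P24 and P28, promoters of RefSeq's GRCm38.p6 table are shown for the member with the largest P28 difference in each class that has an entry, chosen after the values were seen. Of these 5, all but Hist1h4j reached the P28 minimum only through dM1/2. Each runs from 250 bases before to 50 bases after the start. They lie at chr13:23695561-23695860 (Hist1h1t, + strand), chr13:21716162-21716461 (Hist1h2ai, + strand), chr13:23543395-23543694 (Hist1h2bh, - strand), chr13:23535168-23535467 (Hist1h3g, + strand) and chr13:21734784-21735083 (Hist1h4j, + strand). Capitals mark matches, on either strand, to 5 motifs, which are the NF-Y letters CCAAT, the TATA box written as TATAAA, the octamer ATGCAAAT, the H1 box AAACACA and the H4 element GGTCCG.
Hist1h1t promoter: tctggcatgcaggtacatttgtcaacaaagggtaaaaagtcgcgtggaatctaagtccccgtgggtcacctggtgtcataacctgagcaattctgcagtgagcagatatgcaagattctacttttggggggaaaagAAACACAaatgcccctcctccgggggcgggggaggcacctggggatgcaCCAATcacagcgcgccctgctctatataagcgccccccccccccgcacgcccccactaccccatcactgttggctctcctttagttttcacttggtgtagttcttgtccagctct
Hist1h2ai promoter: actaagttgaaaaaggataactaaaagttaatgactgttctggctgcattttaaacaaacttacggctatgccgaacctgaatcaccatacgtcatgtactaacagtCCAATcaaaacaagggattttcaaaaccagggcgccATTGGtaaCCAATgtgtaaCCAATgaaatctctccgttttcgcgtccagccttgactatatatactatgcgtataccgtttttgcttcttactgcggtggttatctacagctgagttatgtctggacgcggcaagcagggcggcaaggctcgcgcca
Hist1h2bh promoter: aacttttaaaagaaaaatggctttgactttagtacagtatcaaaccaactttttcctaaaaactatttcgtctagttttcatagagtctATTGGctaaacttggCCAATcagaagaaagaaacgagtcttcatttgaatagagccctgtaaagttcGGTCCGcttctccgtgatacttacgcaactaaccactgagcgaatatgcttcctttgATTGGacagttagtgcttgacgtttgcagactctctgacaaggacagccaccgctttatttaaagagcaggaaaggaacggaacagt
Hist1h3g promoter: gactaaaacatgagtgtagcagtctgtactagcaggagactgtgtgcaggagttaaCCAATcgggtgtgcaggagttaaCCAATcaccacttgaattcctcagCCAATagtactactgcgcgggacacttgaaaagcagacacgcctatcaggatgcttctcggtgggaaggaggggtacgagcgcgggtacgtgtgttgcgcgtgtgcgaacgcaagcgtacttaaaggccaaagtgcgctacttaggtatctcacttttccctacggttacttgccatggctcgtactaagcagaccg
Hist1h4j promoter: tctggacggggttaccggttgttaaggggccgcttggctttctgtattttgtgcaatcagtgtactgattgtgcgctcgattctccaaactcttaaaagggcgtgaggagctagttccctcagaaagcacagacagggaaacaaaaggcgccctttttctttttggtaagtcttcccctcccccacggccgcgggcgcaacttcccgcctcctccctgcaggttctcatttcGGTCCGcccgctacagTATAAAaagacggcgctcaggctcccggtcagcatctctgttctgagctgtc

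Of the 69 members, 60 matched a promoter entry. CCAAT, the site read by NF-Y, was in 51 of them (85.0%) against 37.9% of all 27025 promoters in the table. TATAAA was in 35 members (58.3%, against 14.2%), the octamer in 12 (20.0%, against 1.75%), the H1 box in 9 (15.0%, against 7.14%) and the H4 element in 13 (21.7%, against 8.39%). The classes differed in which letters they held. CCAAT was present in all 6 H1, 17 H2A, 15 H2B and 10 H3 promoters found but in 3 of 12 H4 promoters, whereas the H4 element was in 11 of those 12. The octamer was in 7 H2A and 5 H2B promoters, and the H1 box in 5 of the 6 H1 promoters. A match is a description of these letters and not of binding. The 60 promoters are not independent. Those of H2A and H2B genes that start head to head, such as Hist1h2ae and Hist1h2bg, overlap, so the same site can count in both. Hist1h2bq and Hist1h2br have the same promoter sequence.

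Summed over the 69 members, histone reads differed among the ages, and the genotypes separated at the anagen ages. In P24 controls the sum was 14528, 10736 and 17218 normalized reads, and in P24 dM1/2 it was 36227, 23355 and 41476. In P28 controls it was 5598, 5166 and 6564, and in P28 dM1/2 it was 22519, 24116 and 24004. Every mutant library of these ages lay above every control of its age, and at P28 no mutant library came near the controls. The library labelled control 3 of P28, with its low Hdac1, stayed on the control side at 6564. At P20 the sums were 7052, 13481 and 11650 in controls and 8457, 9319 and 10614 in dM1/2, and at P60 they were 5520, 5613 and 7426 against 7023, 3824 and 5542. The genotypes overlapped at both telogen ages. Among controls the mean sum was lowest at P28, at 5776, below both telogen ages, at 10728 for P20 and 6186 for P60. The P28 and P60 control libraries overlapped, at 5166 to 6564 and 5520 to 7426. Within P20, control 1 stood apart as the lowest control.

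The mean sum in dM1/2 was 2.38 times the control mean at P24 (SD of the ratio 0.856) and 4.08 times at P28 (SD 0.528), but 0.882 times at P20 (SD 0.291) and 0.883 times at P60 (SD 0.301), with 3 libraries a group and no test of the sum. From P24 to P28 the control mean went from 14160 ± 3257 (SD, n = 3) to 5776 ± 716, while the mutant mean went from 33686 ± 9324 to 23546 ± 892. The genotype ratio was thus larger at P28 although both group means were lower than at P24. Among mutants the ages overlapped, as P24 dM1/2 2, at 23355, lay within the P28 dM1/2 range of 22519 to 24116. Members took 0.0603% to 0.0999% of all reads in P24 controls and 0.155% to 0.249% in P24 dM1/2. At P28 the range was 0.0176% to 0.0399% in controls and 0.13% to 0.142% in dM1/2. In bulk samples such as these, more cells in S phase and more histone RNA per cell cannot be told apart.

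**Figure D1:**
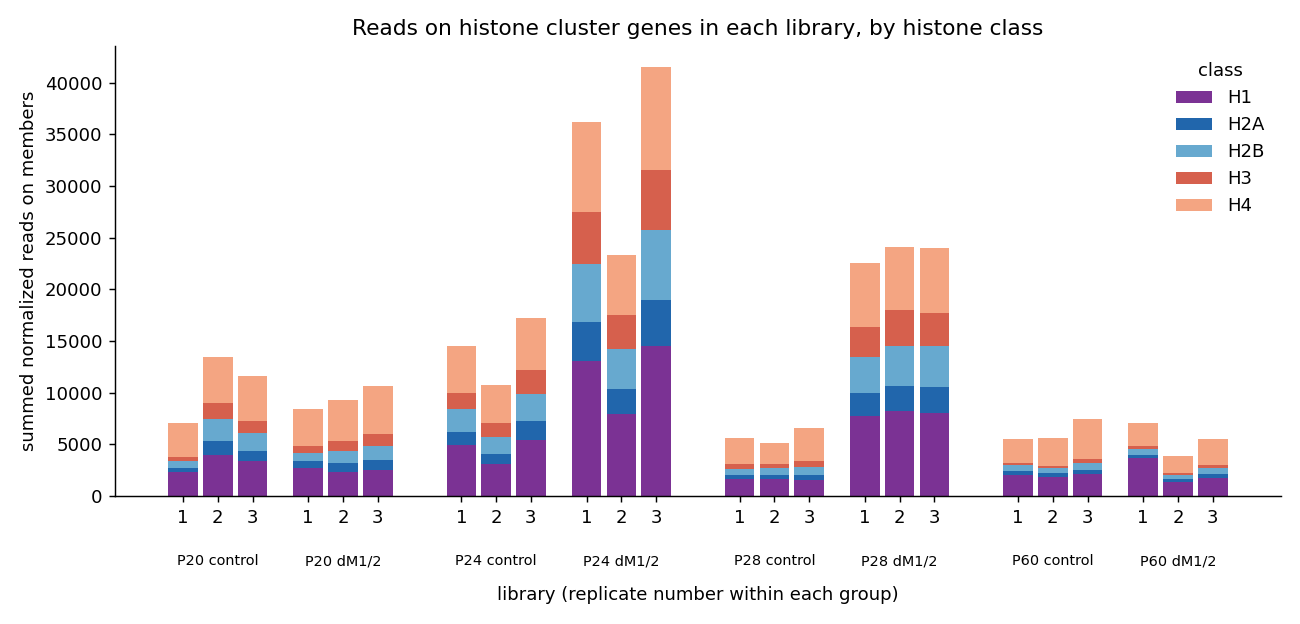
Stacked bars give the summed normalized reads of the H1, H2A, H2B, H3 and H4 members in each of the 24 libraries, grouped by age and genotype on a linear axis from 0. The P28 dM1/2 bars reach 22519 to 24116, and the P28 control bars 5166 to 6564.

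The classes did not change in equal measure. At P28 the ratio of mean sums, dM1/2 over control, was 6.73 for H3 (SD 1.4), 5.96 for H2A (SD 0.629), 5.5 for H2B (SD 0.601), 4.96 for H1 (SD 0.192) and 2.38 for H4 (SD 0.536). At P24 the same ratios were 2.69, 2.65, 2.5, 2.64 and 1.85. H4 had the smallest ratio at both ages. As a share of all members' reads, which also depends on transcript length, H4 went from 44.6% ± 4.54 in P28 controls to 26.3% ± 1.12 in P28 dM1/2 (SD, n = 3). H3 went from 8.21% ± 0.487 to 13.6% ± 0.949, H2A from 6.96% ± 0.361 to 10.1% ± 0.335 and H1 from 28.2% ± 4.08 to 33.9% ± 0.58. In these read shares H4 as a sum was lower and the other classes were higher in P28 dM1/2. The H4 members did not change alike, as given below. By cluster, Hist1 went from 75.6% ± 1.38 to 88.4% ± 0.591 of members' reads, while Hist4 went from 10.4% ± 0.785 to 3.18% ± 0.339. These shares are descriptions of 3 libraries a group and were not tested.

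Each age was tested with limma on log2(normalized reads + 1), on which scale all log2 differences here are given, dM1/2 minus control with the SE. Genes entered where their mean in the comparison was 10 normalized reads or more, p-values were adjusted by the Benjamini-Hochberg method over all of them, and a gene passed below an adjusted p of 0.05. The pseudocount makes the differences of low members smaller than they would otherwise be. At P28, 57 of the 69 members were tested and 53 passed, 52 higher and 1 lower in dM1/2. Across all 14126 genes tested at P28, 5018 passed (35.5%), 2820 of them higher (20.0%) and 2198 lower (15.6%). The median member differed by 3.28 and the median tested gene by 0.0. Of the 57, 11 reached the minimum only through their dM1/2 libraries and had to be higher there: Hist1h1t, Hist1h2ad, Hist1h2ag, Hist1h2ah, Hist1h2ai, Hist1h2an, Hist1h2bh, Hist1h2bn, Hist1h2bp, Hist1h3g and Hist1h3h. Among the 46 whose controls reach the minimum alone, 41 were higher and 1 lower, with a median of 2.58. By class these were 5 of 5 H1, 8 of 9 H2A, 10 of 12 H2B, 8 of 9 H3 (with 1 lower) and 10 of 11 H4 members.

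At P24, 57 members were tested, all with controls above the minimum, and 48 passed, all of them higher in dM1/2. Across all 14028 genes tested at P24, 3735 passed (26.6%), and 2073 were higher (14.8%). The median member differed by 1.45 and the median gene by -0.01. The differences that passed ran from 0.72 to 3.44, with adjusted p from 0.000979 to 0.0415. The 9 members that did not pass differed by -0.7 to 0.83. The P24 count changed with the libraries used: 26 members passed without control 2, 24 without dM1/2 1 and 19 without dM1/2 3. Those are the control with the smallest histone sum and the mutants with the largest. At an adjusted p below 0.01 the P24 count was 17, against 52 at P28, and in a single limma fit over all 24 libraries it was 24. How many of all genes passed under these alternatives is not given here. Whether the lower counts are particular to the members therefore cannot be told. The 48 higher at P24 were all higher at P28 too, and 4 more, Hist1h1c, Hist3h2ba, Hist1h4c and Hist1h2ac, passed in limma at P28 but not at P24. Among the 46 members whose P28 controls reach the minimum, the difference at P28 was larger than at P24 in 44.

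**Figure D2:**
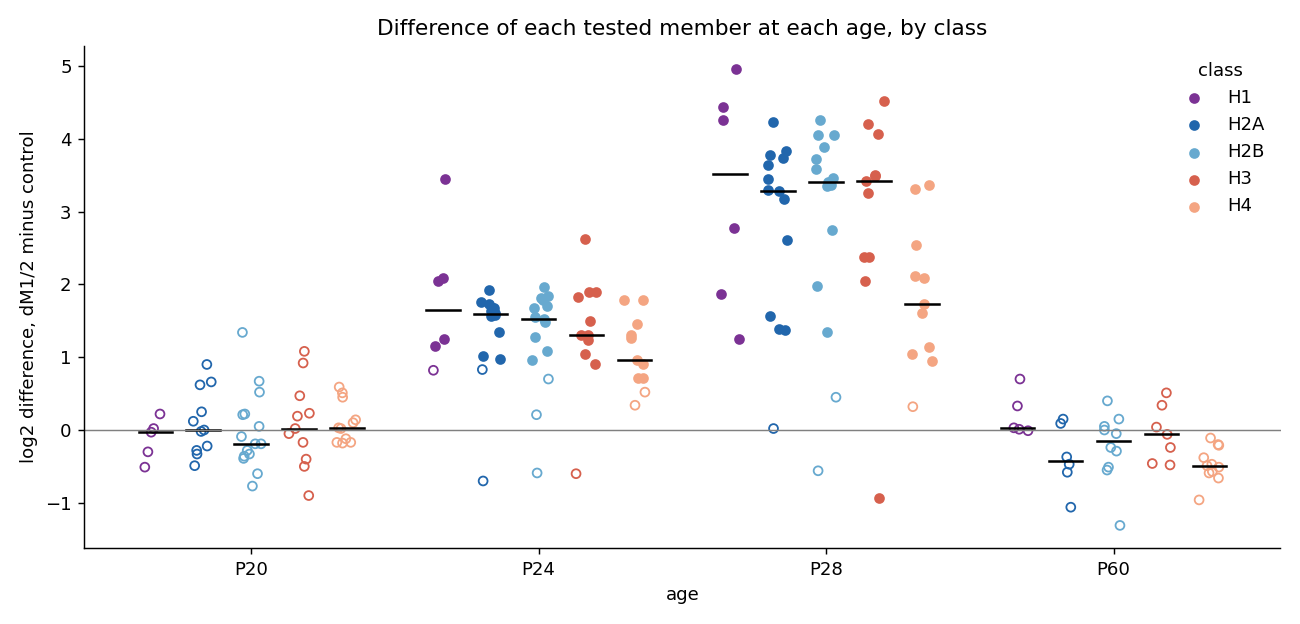
Each point is a member's log2 difference, dM1/2 minus control, at P20, P24, P28 or P60, by class; filled points passed limma's test at an adjusted p below 0.05 and bars are class medians. Class medians lie between 0.96 and 1.64 at P24. At P28, over members whose controls reach the minimum, they were 2.77 for H1, 2.61 for H2A, 3.39 for H2B, 3.26 for H3 and 1.73 for H4, while the bars shown take in all tested members.

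Linker histones of the H1 class bind the DNA that enters and leaves the nucleosome. Hist1h1a had 76.6, 55.7 and 128.9 normalized reads in P28 controls and 1722.4, 1934.3 and 1730.7 in dM1/2. At P24 it had 542.4, 409.2 and 1082.5 in controls and 3167.2, 1698.9 and 3122.1 in dM1/2. Every mutant library of both ages was above every control, with the widest gap at P28. The log2 difference was 2.04 ± 0.38 at P24 (adjusted p 0.00855) and 4.43 ± 0.29 at P28 (adjusted p 0.000261). Hist1h1b had 68.7, 76.2 and 75.5 in P28 controls and 1353.1, 1390.5 and 1504.7 in dM1/2. Its libraries were even within each P28 group and did not overlap, and its difference of 4.25 ± 0.13 had the smallest adjusted p of any member, 9.21e-05. Its P24 difference was 2.09 ± 0.36 (adjusted p 0.00642). In both genes all 50-base windows of the transcript model are unique among annotated transcripts.

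The other somatic H1 genes started from higher control levels and rose less. Hist1h1c had 910.8, 1010.0 and 616.3 normalized reads in P28 controls and 1913.8, 2122.4 and 1879.6 in dM1/2. Hist1h1d had 118.7, 110.2 and 154.3 against 872.9, 850.6 and 878.8, and Hist1h1e had 413.7, 404.8 and 590.1 against 1684.4, 1589.4 and 1802.9. In all 3 genes the mutants lay above the controls without overlap. The P28 differences were 1.25 ± 0.20 for Hist1h1c (adjusted p 0.00365), 2.77 ± 0.16 for Hist1h1d (adjusted p 0.000203) and 1.87 ± 0.17 for Hist1h1e (adjusted p 0.000612). At P24 Hist1h1d and Hist1h1e rose by 1.25 ± 0.27 and 1.16 ± 0.28. Without dM1/2 1 or dM1/2 3 these P24 values were 1.17 and 1.09 for Hist1h1d and 1.06 and 1.0 for Hist1h1e, and none of them passed. Hist1h1e also missed the threshold without control 2, at 0.94. Hist1h1c differed by 0.82 ± 0.26 at P24 (adjusted p 0.0513), which passed without control 1 (1.0) or without dM1/2 2 (1.06), and with all libraries in DESeq2 (adjusted p 0.0112). Per kilobase of transcript, Hist1h1c stood above Hist1h1a in P28 controls, at 542.1 against 117.5 normalized reads, and below it in dM1/2, at 1264.1 against 2423.5. Without division by length, Hist1h1c stayed above Hist1h1a in every P28 dM1/2 library, with means of 1972.0 and 1795.8 normalized reads. The order in dM1/2 therefore depends on the model lengths used, 1560 bases for Hist1h1c and 741 for Hist1h1a.

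Hist1h1t, which encodes the linker histone known from the testis, had 4.3, 5.1 and 12.1 normalized reads in P28 controls and 214.9, 300.0 and 198.7 in dM1/2. At P24 it had 24.0, 18.6 and 19.1 against 200.6, 178.6 and 344.3. P28 controls stood at a few normalized reads and P24 controls higher, and all mutants were far above them at both ages. Its difference of 3.44 ± 0.29 at P24 (adjusted p 0.000979) was the largest among members that passed at that age. At P28 it was 4.96 ± 0.41 (adjusted p 0.000436), but there Hist1h1t reached the minimum only through dM1/2 and had to be higher. In the telogen libraries Hist1h1t had at most 17.7 normalized reads and was not tested. Its stem-loop and promoter are among those shown above, and the promoter holds CCAAT and the H1 box.

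H2A pairs with H2B in the nucleosome core. Of the 14 H2A members tested, 12 rose at P24 with a class median of 1.59, and 13 rose at P28. Among the 9 whose P28 controls reach the minimum, 8 rose, with a median of 2.61. Hist1h2ak had 51.8, 32.7 and 53.9 normalized reads in P28 controls and 611.9, 657.8 and 686.5 in dM1/2. At P24 it had 279.3, 215.4 and 477.2 against 995.5, 703.0 and 1214.7. The mutants were above the controls in every library of both ages, by 1.63 ± 0.31 at P24 (adjusted p 0.00938) and 3.83 ± 0.22 at P28 (adjusted p 0.000205). The P24 call was lost in a single limma fit over all 24 libraries (adjusted p 0.0691). Hist1h2al, annotated as a processed pseudogene on chromosome 13 apart from the clusters, had 113.1, 107.0 and 115.3 in P28 controls and 283.6, 269.5 and 326.8 in dM1/2. It rose less, by 1.38 ± 0.15 (adjusted p 0.00106), and 65.5% of its 50-base windows also occur in Hist2h2aa2, so its reads could stem from other members. Its P24 rise of 0.98 ± 0.25 missed the threshold without control 1 (1.02), control 2 (0.88), dM1/2 1 (0.91) or dM1/2 3 (0.79).

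Sequence sharing is heavy throughout the family. Over the 67 members found in the annotation, a median of 45% of 50-base windows were unique, the read length used; 32 members had more than 50% unique windows, 5 had none and 19 had less than 20%. Among the 32, 29 were tested, of which 21 rose at P24 and 25 at P28. Of the 25, Hist1h1t and Hist1h2bp reached the P28 minimum only through dM1/2, and among the other 27 tested 23 rose, with a median of 2.12. Counts of these members rest least on how reads common to several genes were assigned. All 19 H2A members are also overlapped by an annotated gene on the other strand, and the strand setting of the authors' counting is not given in the sources used here, so reads of such partners cannot be told apart.

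Of the 15 H2B members tested, 12 rose at P24 with a median of 1.53, and 13 at P28. Among the 12 whose P28 controls reach the minimum, 10 rose, with a median of 3.39. Hist1h2bb had 38.3, 37.8 and 58.4 normalized reads in P28 controls and 433.7, 496.7 and 506.2 in dM1/2. Hist1h2bh had 10.4, 3.8 and 7.6 against 159.9, 149.6 and 134.9. Both genes were high in all mutants and low in all controls, Hist1h2bh from a control level below the minimum, so that its P28 test was reached only through dM1/2. The P28 differences were 3.41 ± 0.22 (adjusted p 0.000242) and 4.25 ± 0.37 (adjusted p 0.000531). At P24 they were 1.48 ± 0.31 (adjusted p 0.0124) and 1.97 ± 0.33 (adjusted p 0.00551), and Hist1h2bb missed the threshold without dM1/2 3, at 1.29. Hist1h2bh missed it at P24 in the single limma fit over 24 libraries (adjusted p 0.131). Hist2h2bb (ENSMUSG00000105827) had 138.3, 176.8 and 114.1 in P28 controls and 530.5, 529.2 and 623.9 in dM1/2, a clear separation. It rose by 1.98 ± 0.19 at P28 (adjusted p 0.000718), but none of its windows is unique. All 332 also occur in the annotated gene Gm20628, which overlaps it on the other strand, and 178 in Gm42743, the other Hist2h2bb identifier, on the same strand. The other Hist2h2bb identifier was tested at P20 and P60 only.

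H3 and H4 form the centre of the nucleosome core. Of the 11 H3 members tested, 10 rose at both ages, with a median over all 11 of 1.31 at P24. Among the 9 whose P28 controls reach the minimum, 8 rose and 1 fell, with a median of 3.26. Hist1h3g had 10.4, 1.9 and 8.3 normalized reads in P28 controls and 151.8, 160.7 and 151.8 in dM1/2. At P24 it had 33.3, 25.1 and 58.0 against 237.3, 170.2 and 299.0. No control reached any mutant at either age, although at P28 Hist1h3g was tested only through its dM1/2 level. The differences were 2.62 ± 0.35 at P24 (adjusted p 0.0027) and 4.52 ± 0.53 at P28 (adjusted p 0.00126). In the single fit over 24 libraries the P24 calls of Hist1h3g (adjusted p 0.126) and Hist1h3e (0.066) were lost. Hist1h3a had 39.1, 30.1 and 36.8 in P28 controls and 347.1, 414.8 and 395.8 in dM1/2, and Hist1h3e had 147.9, 108.2 and 187.7 against 677.6, 878.0 and 715.4. Mutants were again above controls throughout, by 3.42 ± 0.19 for Hist1h3a (adjusted p 0.000191) and 2.37 ± 0.23 for Hist1h3e (adjusted p 0.000691). At P24 these genes rose by 1.5 and 1.04. Both P24 calls were lost without control 2 (1.27 and 0.93), without dM1/2 1 (1.41 and 0.99) and without dM1/2 3 (1.32 and 0.90).

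The member that fell was Hist2h3c1, an H3 gene of the Hist2 cluster. It had 42.6, 71.1 and 56.9 normalized reads in P28 controls and 34.5, 26.1 and 25.7 in dM1/2. The mutants were the lower group without overlap, but the margin was small. It fell by 0.94 on the log2 scale with an SE of 0.30 and an adjusted p of 0.046 in limma, while edgeR gave an adjusted p of 0.0577. The call was lost when any library of P28 was left out, with values from -1.13 without control 1 to -0.77 without control 2; the others were -0.93 without the library labelled control 3, -1.07 without dM1/2 1, -0.88 without dM1/2 2 and -0.87 without dM1/2 3. None of its windows is unique, because Gm20634 overlaps it on the same strand.

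Of the 11 H4 members tested, 9 rose at P24 with a median of 0.96, and 10 at P28 with a median of 1.73. Hist1h4d had 626.8, 530.3 and 936.7 normalized reads in P28 controls and 1421.3, 1646.4 and 1436.4 in dM1/2. The mutants lay above the controls, by 1.14 ± 0.22 (adjusted p 0.00735), a small difference for a member of this family. At P24 its rise of 0.72 ± 0.20 was lost without control 1 (0.76), control 2 (0.61), dM1/2 1 (0.68) or dM1/2 3 (0.57). Hist4h4, the lone member of its cluster on chromosome 6, had 597.2, 491.9 and 723.6 in P28 controls and 780.8, 677.1 and 786.1 in dM1/2. Here the groups overlapped, and the difference of 0.32 ± 0.17 did not pass (adjusted p 0.179). Without the library labelled control 3 of P28 it was 0.46 and passed at an adjusted p of 0.0449. At P24 Hist4h4 differed by 0.52 ± 0.21 (adjusted p 0.117), or 0.72 without dM1/2 2 (adjusted p 0.0439). Hist1h4j, whose promoter is shown above, rose by 1.79 ± 0.33 at P24 and 3.36 ± 0.27 at P28, so H4 genes of the large cluster were not uniformly slow to rise.

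**Figure D3:**
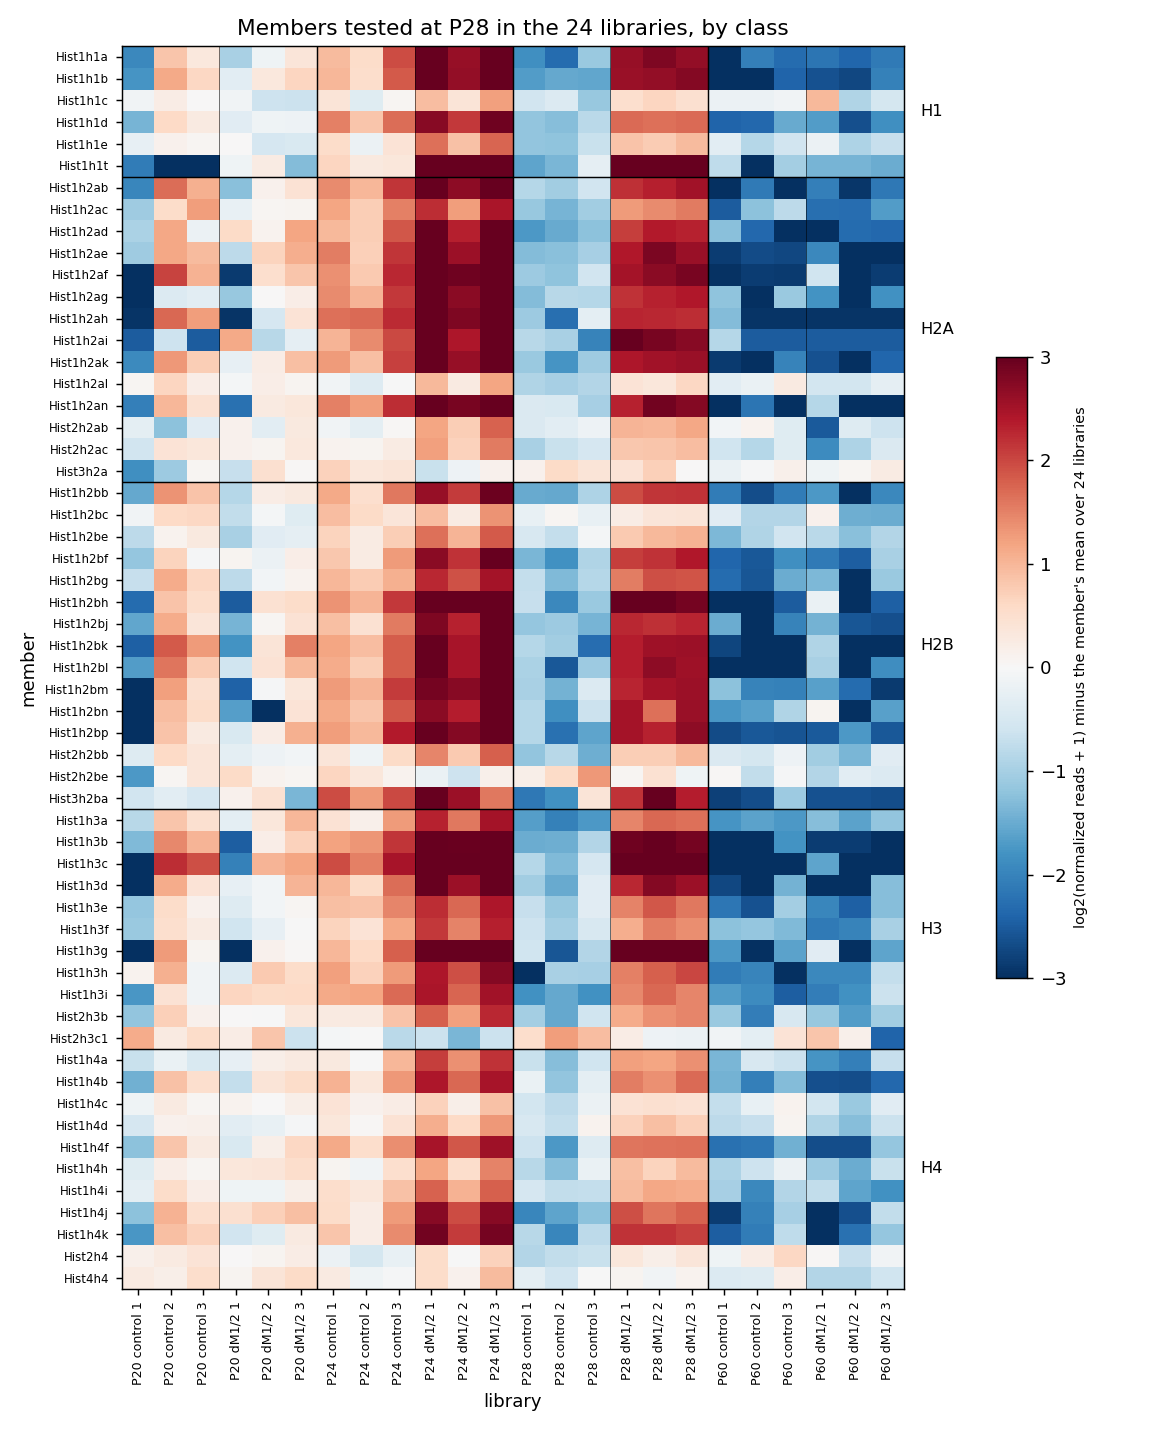
Each line is 1 of the 57 members tested at P28, ordered by class, and columns are the 24 libraries; colour is the log2 of normalized reads relative to the member's mean over libraries, limited to ±3. P24 and P28 dM1/2 columns are high in most members, and P28 control and P60 columns are low.

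The 11 members of the Hist2 cluster lie on chromosome 3 and the 2 of Hist3 on chromosome 11. Of 7 Hist2 members tested, 5 rose at both ages, with cluster medians of 1.01 at P24 and 1.37 at P28, and the P28 controls of all 7 reach the minimum. The 47 Hist1 members tested had a median of 1.56 at P24, and the 36 of them whose P28 controls reach the minimum had 3.21 at P28. Hist2h3b rose by 1.31 ± 0.29 at P24 and 2.37 ± 0.28 at P28, and Hist2h2ac by 1.01 ± 0.23 and 1.56 ± 0.20. Hist2h2ab rose by 1.35 ± 0.31 and 1.37 ± 0.23, and Hist2h4 by 0.72 ± 0.20 and 1.05 ± 0.12. Each of these differences was below the P28 median of the members. Their P24 calls were lost without control 2, dM1/2 1 or dM1/2 3, with values in that order of 1.22, 1.29 and 1.06 for Hist2h3b, 0.98, 0.98 and 0.81 for Hist2h2ac, 1.27, 1.38 and 1.08 for Hist2h2ab, and 0.61, 0.64 and 0.57 for Hist2h4. Those of Hist2h4 and Hist2h2bb were also lost without control 1, at 0.78 and 1.13, and that of Hist2h2bb without control 2 (0.88), dM1/2 1 (1.02) and dM1/2 3 (0.85).

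Hist2h2be had 32.6, 42.9 and 72.4 normalized reads in P28 controls and 29.9, 39.9 and 26.1 in dM1/2. The groups overlapped, and its differences of -0.59 ± 0.33 at P24 (adjusted p 0.223) and -0.56 ± 0.37 at P28 (adjusted p 0.282) did not pass. The library labelled control 3 was the highest P28 control for Hist2h2be, at 72.4. All of its windows are unique, so shared reads do not bear on it. Hist3h2a had 45.2, 61.5 and 54.2 in P28 controls and 55.0, 68.6 and 41.3 in dM1/2, also overlapping, with differences of -0.70 ± 0.29 at P24 (adjusted p 0.116) and 0.02 ± 0.28 at P28 (adjusted p 0.972). Its P28 sign turned without control 1 (-0.10) or dM1/2 2 (-0.16). Hist3h2ba, close by on chromosome 11, had 3.9, 5.1 and 27.3 in P28 controls and 96.4, 181.7 and 109.6 in dM1/2. It was high in all P28 mutants and rose by 3.72 ± 0.68 (adjusted p 0.00675), while its P24 difference of 0.70 ± 0.42 did not pass (adjusted p 0.252). At P24 it had 83.2, 51.2 and 84.2 in controls and 195.9, 125.7 and 63.6 in dM1/2, where dM1/2 3 alone lay among the controls. The highest of its P28 controls was the library labelled control 3.

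Besides Hist4h4, Hist2h2be and Hist3h2a, Hist1h2bc was the remaining tested member without a call at P28. It had 130.5, 159.5 and 131.6 normalized reads in P28 controls and 179.1, 196.7 and 199.5 in dM1/2. Mutants were above controls by a narrow margin, 0.45 ± 0.16, which did not pass (adjusted p 0.0712). The 12 members not tested at P28 were Hist1h2aa, Hist1h2ao, Hist1h2ap, Hist1h2ba, Hist1h2bq, Hist1h2br, Hist1h4m, Hist1h4n, Hist2h2aa1, Hist2h2aa2, Hist2h3c2 and the Hist2h2bb identifier ENSMUSG00000050936, which GENCODE M21 names Gm42743. Over the 24 libraries the mean was 8.58 normalized reads for that identifier, 6.17 for Hist2h3c2, 2.53 for Hist2h2aa1 and 0.128 for Hist2h2aa2. In 8 of these 12 less than 20% of windows were unique, so a low count is not evidence of low expression there.

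The 3′ ends of the gene models divide the family in another way. In 22 members the GENCODE M21 model ends within 100 bases of the stem-loop, in 22 it runs on further, in 23 it holds no stem-loop, and 2, Hist1h2bh and Hist1h2bm, were not found in the annotation. All 16 tested members whose model ends near the stem-loop rose at P24 and at P28, with a P24 median of 1.68. Of the 18 without a stem-loop, 16 rose at each age, with a P24 median of 1.55. Some of these models are short, at 312 bases for Hist1h4k and 381 for Hist1h2bl. A missing stem-loop describes the model and not the transcript. Of the 21 whose model runs on, 14 rose at P24, with a median of 0.96, and 18 at P28, and Hist2h3c1 fell at P28. Members that entered the P28 test only through dM1/2 were spread unevenly, at 4 of the 16, 5 of the 18 and 1 of the 21. Among those whose controls reach the minimum, the P28 medians were 3.42 over 12 members, 3.26 over 13 and 1.96 over 20. Members whose model runs on past the stem-loop had the smallest median at both ages, and no test compared the kinds of model. Their median level per kilobase in P60 controls was 44.7 normalized reads, against 34.0 without a stem-loop and 16.1 for models that end near it. In P60 dM1/2 the same medians were 34.7, 39.0 and 18.9, in P20 controls 114.0, 141.0 and 168.7, and in P28 dM1/2 273.3, 387.0 and 501.6. The order of the kinds by level thus differed among groups.

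The length past the stem-loop is 4884 bases in Hist1h1d, 2445 in Hist4h4, 1257 in Hist2h4, 1153 in Hist1h1e, 840 in Hist1h1c and 770 in Hist1h4d, against 38 in Hist1h2bp and 47 in Hist1h3g. Hist1h1c had the highest level per kilobase of any member in P60 controls, 778.8 normalized reads, and Hist4h4, Hist2h4, Hist1h4d and Hist1h1c were among the members with small differences at P28. Other members whose models run on, of which Hist1h2ac was chosen after its value was seen, had larger differences: Hist1h1d, with the longest extension, rose by 2.77 and Hist1h2ac, with 2010 bases, by 2.61. Hist1h1t, with 185 bases, rose by 4.96 but was tested at P28 only through its dM1/2 level. Hist1h2bc and Hist2h2be, which did not pass, could not be placed by a stem-loop alone, and reads over the gene do not show which 3′ end was used. Whether the reads came from transcripts with or without a poly(A) tail was therefore not tested.

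**Figure D4:**
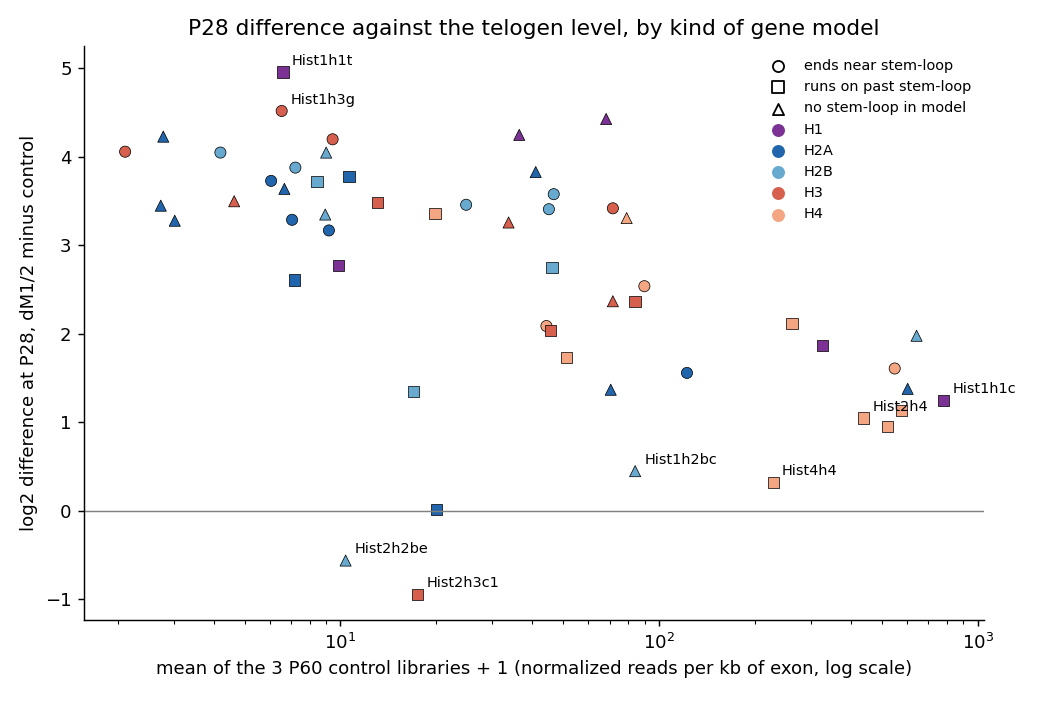
Each point is a member tested at P28, with the mean of P60 controls per kilobase of transcript on a log axis and the log2 difference at P28, dM1/2 minus control, on the other; marker shape gives the kind of gene model. Hist1h1c lies farthest right at 778.8 normalized reads per kilobase, with a difference of 1.25.

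Members also lie close together on their chromosomes. On chromosome 13, 17 members lie in chr13:21715763-21837530, 5 in chr13:22035164-22043676 and 28 in chr13:23531050-23764406 (GRCm38). At P24 all 11 tested members of the first group rose, with a median of 1.67, as did the 5 of the next, with a median of 1.70, and 24 of 28 in the largest, with a median of 1.38. At P28, 5 of the 11, 2 of the 5 and 3 of the 28 entered only through their dM1/2 libraries. Of the others, 6 of 6, 3 of 3 and 24 of 25 rose, with medians of 3.59, 3.46 and 2.61. The rise thus spanned all 3 groups. Among all 69 members, 24 form 12 head-to-head pairs of an H2A and an H2B gene whose starts are 176 to 306 bases apart, and in 9 of these pairs both partners were tested at P24 and P28. In 7 of the 9 both partners rose at P24, where every member's controls reach the minimum, and the same 7 rose at P28. At P28 both partners' controls reach the minimum in 3 pairs, of which both rose in 1, Hist1h2ae (3.78) and Hist1h2bg (2.75). In the other 2 of these 3 the partners parted: Hist1h2ac rose by 2.61 where Hist1h2bc differed by 0.45, and Hist2h2ac rose by 1.56 where Hist2h2be differed by -0.56. The promoters of Hist2h2ac (chr3:96220831-96221130, - strand), which faces Hist2h2be, and of Hist4h4 (chr6:136804382-136804681, - strand), which did not pass, are shown for contrast with those above, from the same RefSeq table and chosen after the values were seen. Capitals again mark the same 5 motifs on either strand.
Hist2h2ac promoter: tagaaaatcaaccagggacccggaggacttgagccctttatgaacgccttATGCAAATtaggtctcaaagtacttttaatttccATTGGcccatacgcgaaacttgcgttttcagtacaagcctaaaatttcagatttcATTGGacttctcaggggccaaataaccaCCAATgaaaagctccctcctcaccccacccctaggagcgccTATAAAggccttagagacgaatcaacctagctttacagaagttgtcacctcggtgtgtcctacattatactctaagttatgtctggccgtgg
Hist4h4 promoter: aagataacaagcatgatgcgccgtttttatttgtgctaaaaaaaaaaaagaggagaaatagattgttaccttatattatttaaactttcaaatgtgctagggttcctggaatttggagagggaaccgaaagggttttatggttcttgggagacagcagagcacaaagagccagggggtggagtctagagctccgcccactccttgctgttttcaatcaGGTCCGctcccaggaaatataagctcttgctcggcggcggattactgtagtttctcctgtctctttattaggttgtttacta

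The Hist2h2ac promoter holds CCAAT, the TATA box and the octamer, and the Hist4h4 promoter holds the H4 element alone. Of the 5 motifs, Hist1h4b and Hist1h4h, named after their values were seen, also hold the H4 element alone, and they rose by 2.09 and 1.61 at P28.

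In telogen the genotypes could not be separated. At P20, 53 members were tested and 0 passed in limma, with 4 below an unadjusted p of 0.05 and 0 passing in edgeR and 0 in DESeq2. Across all 13845 genes tested at P20, 60 passed in limma (0.433%), and 2735 were below an unadjusted p of 0.05. In edgeR 78 of all genes passed and in DESeq2 663. The members' median was 0.0 and that of all genes -0.01, with member differences from -0.90 to 1.34. Hist1h1a had 72.3, 500.5 and 347.0 normalized reads in P20 controls and 141.0, 256.7 and 360.7 in dM1/2. Controls spread more widely than the genotypes differed, with control 1 lowest, as in the sum. Without P20 control 1, 4 members passed as lower in dM1/2: Hist1h2bc, Hist1h1d, Hist1h2bg and Hist2h2bb (ENSMUSG00000105827). Without replicate 1 of both genotypes, an alternative added after the data were seen, 4 passed as lower, Hist1h2bc, Hist1h1c, Hist1h1e and Hist1h3c. These names were chosen after their values were seen. Most members did not pass under either alternative, and Hist1h2bc was the member called in both. How many of all genes passed in these fits is not given here, so the counts of 4 cannot be set beside a share of all genes.

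At P60, 39 members were tested and 0 passed in limma, with 1 below an unadjusted p of 0.05 and 0 passing in edgeR and 0 in DESeq2. Across all 14042 genes tested at P60, 0 passed (0.0%), with 525 below an unadjusted p of 0.05, 0 in edgeR and 26 in DESeq2. The members' median was -0.24 and that of all genes 0.02. The 1 member at unadjusted p was Hist4h4, with 554.1, 560.1 and 834.6 normalized reads in controls and 396.4, 399.8 and 480.1 in dM1/2. The mutants were the lower group without overlap, the reverse of anagen, but its -0.59 ± 0.20 did not pass (adjusted p 0.986). Hist1h1c had 1196.4, 1189.3 and 1258.8 in controls and 2663.4, 726.6 and 941.4 in dM1/2, where dM1/2 1 stood far above the rest and the groups overlapped. Members with a mean below 10 normalized reads at P60 did not enter the test, and of the 39 tested, 4 were below the minimum in dM1/2 alone.

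Whether the genotype difference depended on stage was tested over all 24 libraries, as the mean difference at P24 and P28 minus that at P20 and P60. Of 57 members, 48 passed, all with a larger difference in anagen, where 4298 of 14243 genes passed (30.2%) and 2294 (16.1%) in that direction. The members' median was 2.13 and that of all genes -0.03. Of the 48, Hist1h1t, Hist1h2ah, Hist1h2ai and Hist1h2bn have a mean below 10 outside the anagen dM1/2 libraries, so they entered only through these. Among the other 53 members 44 passed, with a median of 2.01. By class these were 5 of 5 H1, 9 of 12 H2A, 10 of 14 H2B, 9 of 11 H3 and 11 of 11 H4 members. Hist4h4, which passed at no age, did so here at 0.70 ± 0.20 (adjusted p 0.0122), from small differences of opposite sign in anagen and at P60. In edgeR 42 members passed, among 4342 of all 14243 genes. Sex and depth moved with stage, as given above, so the anagen and telogen ages cannot be told apart from them.

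The change from P24 to P28 was tested as the P28 difference minus the P24 difference over 12 libraries. In limma 6 members passed, all larger at P28, where 100 of 14139 genes passed (0.707%) and 64 (0.453%) in that direction. They were Hist1h3i at 2.36 ± 0.34 (adjusted p 0.0247), Hist1h3b at 2.30 ± 0.41 (0.0379), Hist1h3c at 2.23 ± 0.42 (0.0423), Hist1h2ak at 2.20 ± 0.42 (0.0432), Hist1h2bg at 1.47 ± 0.29 (0.0488) and Hist1h1b at 2.16 ± 0.43 (0.0497). The adjusted p-values lie close to the threshold, and at an adjusted p below 0.01 there were 0 in limma. Without the filter on low values Hist1h1b and Hist1h2bg missed the threshold (adjusted p 0.0543 each). The median over all 57 members, most of which did not pass, was 1.57, and that over all genes 0.03. DESeq2 passed 29 members, among 595 of all 14139 genes, and edgeR 6, among 103. The limma count was unsteady, with 1 member left without P24 control 1, 10 without P24 control 2, 0 without P24 control 3, 0 without P24 dM1/2 1, 1 without P24 dM1/2 2 and 1 without P24 dM1/2 3. It was 2 without P28 control 1 and 0 without P28 dM1/2 1, 2 or 3, and Hist1h3i was the member left wherever 1 remained. The count of all genes that passed with a library left out is not given here, so these counts have no share beside them. At P24 alone Hist1h3i passed, and this call was lost without control 1 (0.80), control 2 (0.82), dM1/2 1 (0.80) or dM1/2 3 (0.76). In the single limma fit over 24 libraries the P24 calls of Hist1h3i (adjusted p 0.133), Hist1h3b (0.0954), Hist1h3c (0.339) and Hist1h2bg (0.0601) were lost.

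Genes that act on histone transcripts had smaller differences than most of those transcripts. Of 17 genes for histone mRNA synthesis, 3′ processing and decay, 4 rose at P24 and 4 rose and 1 fell at P28, with medians of 0.15 and 0.32 against -0.01 and 0.0 for all genes. The share that passed, 23.5% and 29.4%, lies below the 26.6% and 35.5% of all genes, while the share that rose, 23.5% at each age, lies above the 14.8% and 20.0% of all genes. No test compared the list with all genes. Slbp, which encodes the stem-loop binding protein, had 418.9, 447.7 and 427.8 normalized reads in P28 controls and 625.1, 677.1 and 715.0 in dM1/2. All mutants were above all controls, by 0.64 ± 0.11 (adjusted p 0.00615). Its P24 rise of 0.52 was lost without control 1 (0.41), control 2 (0.55), dM1/2 1 (0.45), dM1/2 2 (0.55) or dM1/2 3 (0.55). Lsm11, a subunit of the U7 particle that directs cleavage, had 166.6, 188.3 and 161.9 against 406.8, 447.4 and 362.5 at P28, again without overlap, and rose by 1.23 ± 0.15 (adjusted p 0.00141). Eri1, an exonuclease that trims histone transcripts, had 299.3, 409.9 and 317.0 against 768.0, 820.2 and 754.7, all mutants higher, and rose by 1.20 ± 0.15 (adjusted p 0.00162). Npat, the coactivator of histone gene transcription, differed by 0.37 at P24 and 0.32 at P28 and did not pass, except at P24 without control 3 (0.45). Casp8ap2 (0.31 and 0.12) and Zfp473 (-0.21 and 0.37) did not pass. Lsm10, the partner of Lsm11, differed by -0.68 and -0.58 and did not pass in limma, except at P24 without control 3 (-0.89). In DESeq2 Lsm10 was lower at P24 (-0.72, adjusted p 0.0202) and at P28 (-0.59, adjusted p 0.0446).

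Other histone genes, called replication-independent histones here, and the proteins that carry histones were read beside the members. Whether transcripts of these listed histone genes depend on S phase was not tested. Of 11 replication-independent histone genes, 4 rose at P24 (36.4%) and 9 at P28 (81.8%), with medians of 0.55 and 0.99, where 14.8% and 20.0% of all genes rose. Cenpa, the H3 variant of centromeres, rose by 1.70 at P24 and 2.68 at P28, H2afx by 1.44 and 1.92, and H2afz by 1.36 and 1.53. The macroH2A genes H2afy (0.26) and H2afy2 (-0.39) were those that did not pass at P28. Of 19 histone chaperone genes 10 rose at each age (52.6%), against the same shares of all genes, with medians of 0.43 and 0.56. Asf1b rose by 2.61 and 4.29, and Chaf1b and Chaf1a, subunits of the complex that loads histones on new DNA, by 2.53 and 3.98 and by 1.35 and 1.90.

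Of 22 genes for DNA replication and the cell cycle, called S phase genes here, 21 rose at P24 and 21 at P28 (95.5% at each age, against 14.8% and 20.0% of all genes), with medians of 1.63 and 2.30 against -0.01 and 0.0 for all genes. The list includes Mki67 and Cdk1, and Mki67 was its most abundant gene in all P24 and P28 dM1/2 libraries. The summed level of the list was 3581, 4055 and 3463 normalized reads in P28 controls and 13783, 14926 and 16463 in dM1/2, and 6807, 6296 and 10069 against 22213, 16535 and 22004 at P24. As with the histone sum, all mutants of both ages were above all controls. At P20 the sum was 4500, 9747 and 7979 in controls and 4825, 6816 and 8319 in dM1/2, and P20 control 1 was again the lowest control. At P60 it was 4131, 4166 and 4556 against 4211, 4652 and 4780, which overlap. There dM1/2 1 had the highest mutant histone sum (7023) and the lowest mutant S phase sum. The library labelled control 3 of P28 likewise had the highest histone sum of its group (6564) and the lowest S phase sum. Cdk1 rose by 1.87 and 4.33, Mcm5 by 1.96 and 3.30, and Rrm2 by 2.36 and 3.27. The genes that did not pass were Mcm4 at P24 (0.66) and E2f1 at P28 (1.63, adjusted p 0.0989). Histone and S phase sums were therefore both higher in the mutants of P24 and P28, but their order within a group could differ. Whether either depended on the other was not tested.

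**Figure D5:**
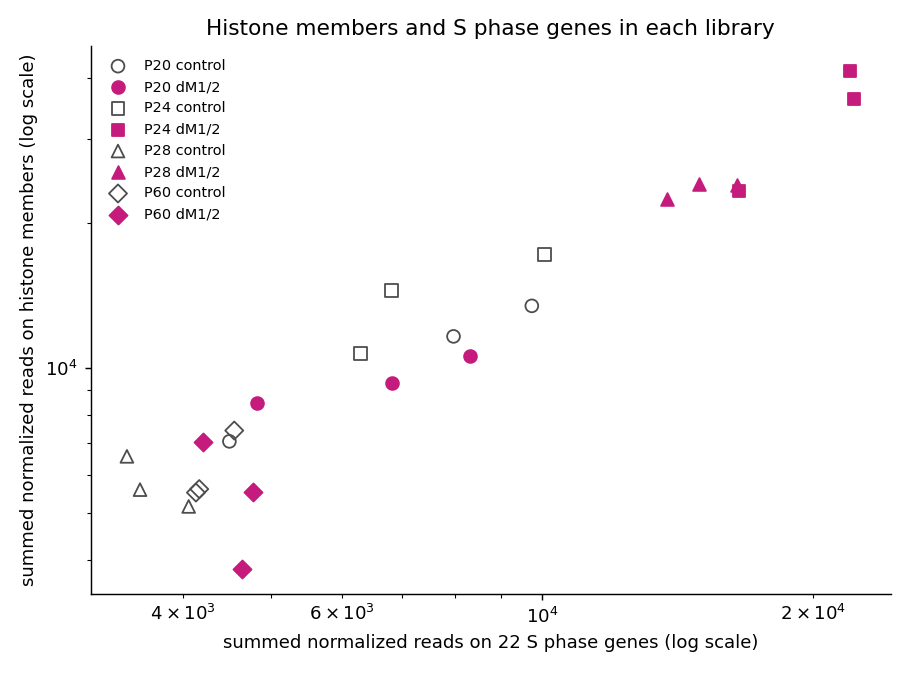
Each point is 1 of the 24 libraries, with the summed normalized reads of the 22 S phase genes and of the 69 histone members on log axes, by age and genotype. P28 dM1/2 libraries lie at 13783 to 16463 and 22519 to 24116, and P28 controls at 3463 to 4055 and 5166 to 6564.

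Other transcripts without a canonical poly(A) tail serve as a view of how such RNA was captured. Of 15 listed, 2 were found and the other 13 were not analysed here. In limma 0 of the 2 passed at any age. Malat1 differed by -1.09 at P24 and -0.58 at P28, and Neat1 by 0.37 and 0.61. At P24 Malat1 had 77461, 83738 and 133909 normalized reads in controls and 54769, 92835 and 17551 in dM1/2. The groups overlapped, and dM1/2 3 stood far below the other libraries. Malat1 thus had the opposite sign to most histone members and Neat1 the same sign, and 2 genes are too few to describe capture.

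Markers of other cells that the sort could hold were read as lists. Of 20 keratinocyte markers 19 were found. At P24 1 rose and 1 fell of 10 tested, and 1 of 8 rose at P28. The shares that passed, 20.0% and 12.5%, lie below the 26.6% and 35.5% of all genes. Their summed level was 934, 556 and 799 normalized reads in P28 controls and 1190, 1460 and 1182 in dM1/2, higher in all mutants. The most abundant gene was Msx2, which dermal papilla cells also express, with 584.6, 167.2 and 636.0 against 955.2, 1126.1 and 832.2, and each P28 library had 1 to 3 of the markers at 0. Without Msx2 the sums were 350, 389 and 163 in P28 controls and 235, 333 and 350 in dM1/2, which overlap. At P24 the whole sums overlapped as well, at 850, 1391 and 562 against 1541, 1237 and 1495. Dsp rose by 1.58 ± 0.50 at P28 (adjusted p 0.0465), a call lost without control 1 (1.71), dM1/2 1 (1.69), dM1/2 2 (1.65) or dM1/2 3 (1.4), while Epcam differed by -2.47 at P24, where it reached the minimum only through controls and had to be lower in dM1/2. Their part in the histone result was not tested.

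The remaining lists gave few calls, where 26.6% of all tested genes passed at P24 and 35.5% at P28. Of 8 melanocyte markers, 4 were tested at P24 and 4 at P28, and 0 of those passed in limma. The sum of the 8 had means of 705 and 568 in P28 controls and dM1/2, with Mitf the most abundant. Of 8 endothelial markers, 6 were tested at P24 and 6 at P28. At P24 1 rose and 1 fell, Egfl7 (1.04) and Pecam1 (-1.39), and 0 passed at P28. The mean sums at P28 were 1189 and 669, with Tek or Kdr the most abundant. Of 9 immune markers, 3 were tested at P24 and 5 at P28, and 0 of those passed. The mean sums were 570 and 610 at P28, and Csf1r was the most abundant in all P28 libraries but control 3, where Lyz2 was. Of 6 dermal sheath markers Itga8 fell by 0.92 at P24 and 2.18 at P28, with mean sums of 6442 and 3468 at P28. Acta2 was the most abundant sheath gene in all P28 libraries but control 3, where Itga8 was. The sheath sum was 6975, 9053 and 3299 in P28 controls, above the histone sum of the same library in controls 1 and 2 and below it in control 3. Of 6 muscle markers, 2 were tested at P24 and 1 at P28. Mylpf differed by 1.74 and 2.94, but its control means of 5.6 at P24 and 4.49 at P28 are below the minimum, so it entered only through dM1/2. The muscle sums had means of 31 and 76 at P28. These P28 sums overlapped between the genotypes, muscle apart, and their part in the histone result was not tested.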

How the data were processed

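Per the study's methods, total RNA was depleted of ribosomal RNA and made into strand-specific libraries (NEBNext Ultra Directional), read as 50-base single ends. Trimmomatic trimmed the reads, TopHat 2 placed them on mm10, HTSeq assigned them to Ensembl GRCm38.p4 genes, and DESeq2 scaled the counts. What the authors deposited per library is a signal: the read count of a gene over a size factor, set across the 24 libraries together. All values of a library are whole multiples of the value of 1 read (100% within 0.001), so reads were recovered for edgeR and DESeq2. The authors' files also hold mean, log2 fold change, standard error, test statistic and p columns for each age, which were not used.

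From the signal, log2(normalized reads + 1) was fitted with limma (3.58.1, trend, two-sided) over genes averaging 10 normalized reads or more in the libraries fitted, with Benjamini-Hochberg adjustment over all of them. Other fits used edgeR 4.0.16 (quasi-likelihood, TMM) and DESeq2 1.42.0 in R 4.3.3; tables and figures used pandas 2.3.3, numpy 2.4.6 and matplotlib 3.10.9. An exact permutation test of 3 against 3 libraries cannot go below p 0.1. Gene models came from GENCODE M21, with 50-base windows compared over its transcripts, and promoters from RefSeq (GRCm38.p6).

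Members and lists were chosen with earlier results of these data known. Named members were the 2 most abundant of each class, all somatic H1 genes, up to 5 largest rises and falls at P24 and at P28, all members past the threshold at P20, P60 or between P28 and P24 (up to 10), and the Hist2, Hist3 and Hist4 members. Named list genes were Slbp, Npat, Casp8ap2, Lsm10, Lsm11, Zfp473, Eri1 and, of every other list, the 3 largest rises and falls at P28 past the threshold. Members and list genes named beyond this were chosen after their values were seen.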

Additional observations from a re-analysis of the deposited data

Results flagged for a closer look

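Differences of the genotype effect between stages were marked because a limma test of the difference itself passed. Between anagen (P24 and P28) and telogen (P20 and P60) 48 of 57 tested members differed (84.2%). Of all tested genes 30.2% differed, and 16.1% did so with a larger difference in anagen. All of the 2 most abundant members of each class passed, and the difference was 1.28 for Hist1h1c, 1.67 for Hist1h1e, 2.53 for Hist1h2ak, 1.48 for Hist1h2al, 1.99 for Hist2h2bb (ENSMUSG00000105827), 2.59 for Hist1h2bb, 1.68 for Hist1h3e, 2.20 for Hist1h3a, 1.23 for Hist1h4d and 0.70 for Hist4h4, all log2 and larger in anagen. Other named members that passed included Hist1h1a (3.06), Hist1h1b (2.71), Hist1h1d (2.01), Hist1h1t (2.46) and Hist1h3g (3.53). Hist1h1t, Hist1h2ah, Hist1h2ai and Hist1h2bn reached the minimum only through their anagen dM1/2 libraries, so their direction was fixed by the filter. Among the other 53 tested members 44 passed. Between P28 and P24 6 of 57 tested members differed (10.5%), all larger at P28: Hist1h2ak by 2.20, Hist1h1b by 2.16, Hist1h3i by 2.36, Hist1h3b by 2.30, Hist1h3c by 2.23 and Hist1h2bg by 1.47. Of all tested genes 0.707% differed, and 0.453% were larger at P28. Sex and depth differ between the anagen and telogen ages and cannot be told apart from stage there, while P24 and P28 libraries are alike in both.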

How the results depend on the processing

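Of 98 single-gene results, 59 kept their direction and their side of the threshold under every alternative; of 1402 values, 1219 were the same, 168 weaker, 11 stronger and 4 reversed. The reversed ones were Hist3h2a at P28 without control 1 (-0.10) or dM1/2 2 (-0.16), Zfp473 at P24 without control 3 (0.31) and Hdac1 at P28 without control 2 (0.03), and the cause was not tested. With 1 library left out at a time these genes ran from -0.16 to 0.20, from -0.55 to 0.31 and from -1.13 to 0.03. Leaving out 1 library at a time gave 0 to 4 members called at P20, 19 to 51 at P24, 52 to 53 at P28, 0 to 0 at P60, 40 to 54 between anagen and telogen and 0 to 10 between P28 and P24. Without replicate 1 of both genotypes, chosen after the data were seen, 4 members were called at P20. At an adjusted p below 0.01 the count was 17 at P24 and 0 between P28 and P24. With only members mostly of unique windows, where fewer genes are counted by construction, it was 21 at P24, 25 at P28, 24 between anagen and telogen and 3 between P28 and P24. A single fit over 24 libraries gave 24 at P24. Between P28 and P24, a replicate block gave 0 and DESeq2 29, where DESeq2 passed 595 of all genes and limma 100. Hist1h1c passed at P24 with a replicate block (adjusted p 0.0282). The cause of these changes was not tested. Apart from DESeq2 and limma between P28 and P24, the count of all genes that passed under these alternatives is not given here. The member counts thus have no share of all genes beside them. Replicate numbers are not pairs per the labels. Fewer members reached the minimum of 10 normalized reads at P20 (53) and P60 (39) than at P24 (57) and P28 (57), and the part of depth in this was not tested.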
